A study of Homo sapiens with 24 samples.

Results

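The comparison described here asks how transcription answers a degrader of INTS11, the Integrator endonuclease, and a degrader of INTS8 in cells that keep a variant INTS8, each set against its own vehicle. Its members are 8 of the 24 libraries of the study, 2 in each of 4 groups, and the quantity is a difference of responses, taken gene by gene on the log2 scale: the change with dTAG13 against DMSO in the INTS11 line minus the same change in the N211del line. Cells were DLD1, an established line from a human colorectal adenocarcinoma, and the assay was TT-seq, which labels RNA with a uridine analogue in a short pulse and then purifies and sequences what was made in that time. In the INTS11-dTAG line INTS11 carries a degron tag, and dTAG13, a small molecule that brings a tagged protein to a ubiquitin ligase, was given for 3 h or replaced by DMSO for 3 h. The N211del line is the INTS8-dTAG line, which in addition expresses an INTS8 variant named N211del from an added construct, and it was given the same pair of treatments. Both lines carry a tag, both were handled in the same batch, and without dTAG13 in a line that lacks a tag, effects of the compound itself are not set apart. The tag acts on protein, so its effect could not be checked from RNA, the labels do not say whether a line is 1 clone, and INTS11, INTS8 and PPP2CA were not analysed here.

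Integrator is a large complex that binds paused RNA polymerase II near promoters. Its endonuclease module, with INTS11 as the catalytic subunit, cleaves the nascent RNA and ends transcription early, and its phosphatase module, anchored by INTS8, brings PP2A to the polymerase, where it opposes the kinases that release it into elongation. Both activities are known to restrain transcription of many genes, among them genes that respond to growth factors and stress.

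Each deposited value of batch 1 could be written as a whole number of units divided by the length of the gene in kilobases. That length was read from the values themselves, and values below are given on the deposited scale. The 8 libraries held 5517104 to 7102298 units, and the median gene held 430.5 to 544. Of 11 markers of intestinal epithelial cells 8 were listed for at least 1 line, with EPCAM between 110.9 and 155.8 per kb, and the sum over the 7 listed for both lines lay between 2063 and 2547. None of 19 markers of fibroblasts, endothelial cells and blood cells was listed, so no level can be given for them. The labels call the libraries of a group biological duplicates. The pairs of the INTS11 dTAG13 group and the N211del DMSO group differed by no more than counting noise, so the p-values rest on a spread between libraries that may be technical.

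The responses of the lines differed at many genes, and at most of these the N211del line rose more or the INTS11 line rose less. Of 6579 genes tested, 3190 had a difference beyond the replicate spread at an adjusted p of 0.05 (48.5%; limma with Benjamini-Hochberg adjustment), 316 with the INTS11 response above the N211del response (4.8%) and 2874 below it (43.7%). The INTS11 response alone was called at 2575 genes (39.1%), 1275 higher (19.4%) and 1300 lower (19.8%), and the N211del response at 3658 (55.6%), 3191 higher (48.5%) and 467 lower (7.1%). The count lower in the INTS11 line rests on few libraries: it was 713 without dTAG13 replicate 2, 750 without DMSO replicate 2 and 492 with pairs that differed by no more than counting noise averaged to 1 sample. The median gene changed by a log2 of −0.03 for INTS11 and 0.21 for N211del, and the median difference was −0.26, with a median SE of 0.12. When each library was centred on its own median, the same test called 33.9%, with 1237 genes above (18.8%) and 992 below (15.1%). Centred, the INTS11 response was called at 50.6% of genes, 26.1% higher and 24.5% lower, and the N211del response at 62.1%, 26.9% higher and 35.2% lower. All 316 genes above and 992 of the 2874 below were called in the same direction both ways, and no gene was called in opposite directions. In bulk libraries a change in the number of cells that took up label and a change in new RNA per cell cannot be told apart. Total units moved with the median gene. They were 5614822 and 5517104 in the N211del DMSO libraries and 6179411 and 7019655 after dTAG13. In the INTS11 line they were 7026277 and 7102298 and then 6762187 and 6632364. How batch 1 was scaled is not given, and the share of sequencing depth in these shifts was not tested. The median gene of the N211del dTAG13 replicates differed by a log2 of −0.16 (replicate 1 minus replicate 2), against −0.03 to 0.02 in the other 3 groups. Without replicate 1 of that group 258 genes lay above and 3756 below, and without replicate 2 they were 362 and 2062.

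**Figure D1:**
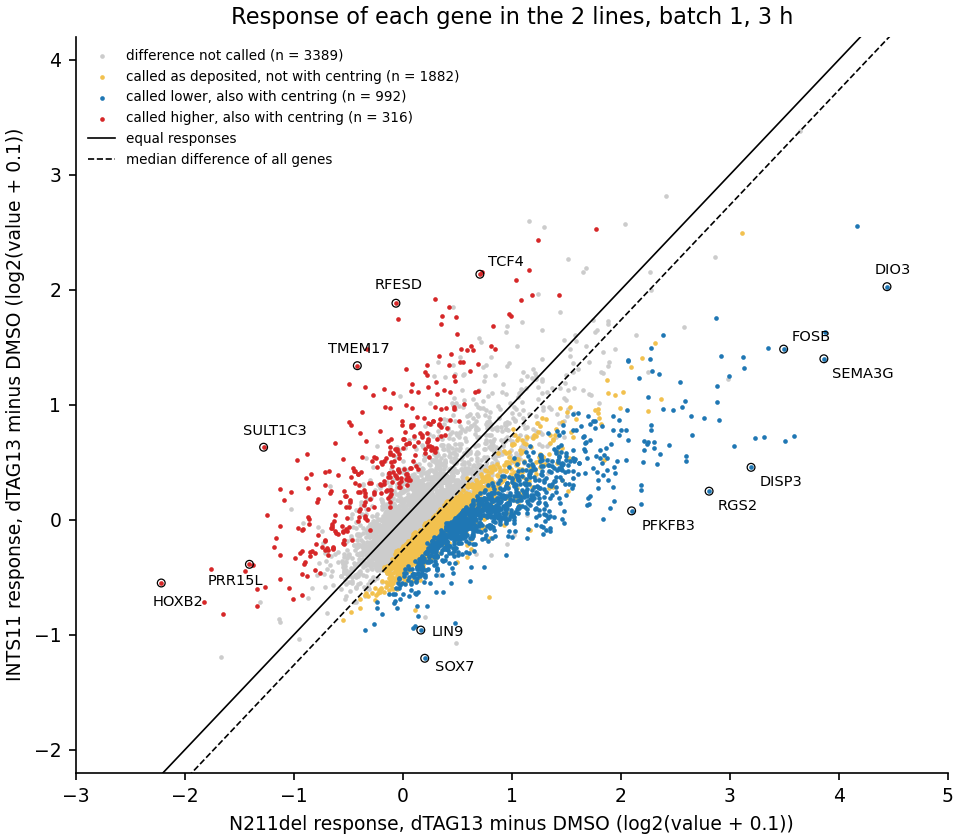
Log2 response of each of 6579 genes to 3 h of dTAG13 in the N211del line (x axis) and in the INTS11 line (y axis), 2 libraries per group; the solid line marks equal responses and the dashed line the median difference of −0.26. Red points (316) and blue points (992) were called with and without centring, yellow points (1882) as deposited and not with centring, and 3389 grey points were not called as deposited; most blue points lie to the right of 0, where the N211del line rose.

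By the direction of the responses themselves, the 992 genes fell mainly into 2 patterns. As deposited, the N211del line rose and the INTS11 response was not called at 550 of them, and both lines rose at 253, the N211del line by more. At 108 the INTS11 line fell and the N211del line rose, at 76 the INTS11 line alone fell, and at 5 both fell, INTS11 by more. With centred responses these 5 patterns held 391, 371, 36, 138 and 50 of the 992, so their sizes depend on the scaling. Among the 316 genes above, as deposited, 115 rose in the INTS11 line with no call in the N211del line. Another 76 fell in the N211del line with no call in the INTS11 line, 58 rose in both and 29 fell in both. At 25 the INTS11 line rose and the N211del line fell, and 13 had a called difference with neither response called. The number with opposite called responses depends on the scaling, 25 and 159 as deposited against 168 and 36 with centring (INTS11 higher with N211del lower, and the reverse). A difference of at least 1 on the log2 scale, called, was found at 57 genes above and 192 below, and one of at least 2 at 0 above and 16 below.

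The genes that rose far more in the N211del line include regulators of signalling. RGS2, which switches off heterotrimeric G proteins, and DISP3, a membrane protein related to the Hedgehog component Dispatched, are shown by their promoters because both were at similar levels in 6 of the 8 libraries and far higher in the other 2. The sequences run from 250 bases before to 50 bases after the start in RefSeq (build GRCh38.p14, plus strand), DISP3 at chr1:11478905-11479204 and RGS2 at chr1:192808789-192809088. Capitals mark matches, on either strand, to AP-1 (TGANTCA), the TATA box (TATAAA), the E-box (CACGTG), CRE (TGACGTCA), ETS (CCGGAAG) or SP/KLF (GGGCGG).
DISP3: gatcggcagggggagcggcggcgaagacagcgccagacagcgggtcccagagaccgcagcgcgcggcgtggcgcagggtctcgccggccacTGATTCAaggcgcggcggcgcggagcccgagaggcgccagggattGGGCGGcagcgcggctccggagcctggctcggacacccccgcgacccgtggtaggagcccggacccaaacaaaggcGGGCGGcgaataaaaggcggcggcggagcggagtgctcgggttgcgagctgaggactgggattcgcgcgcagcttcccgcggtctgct
RGS2: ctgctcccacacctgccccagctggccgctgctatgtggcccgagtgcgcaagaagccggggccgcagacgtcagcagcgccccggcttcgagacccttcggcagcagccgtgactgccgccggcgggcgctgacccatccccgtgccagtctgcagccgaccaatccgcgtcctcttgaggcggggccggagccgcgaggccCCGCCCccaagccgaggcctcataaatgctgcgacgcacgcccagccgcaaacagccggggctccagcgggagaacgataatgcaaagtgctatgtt

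DISP3 stood at 0.497 and 0.668 per kb in the INTS11 DMSO libraries and 0.891 and 0.771 after dTAG13, against 0.599 and 0.685 and then 6.68 and 6.70 in the N211del line. Both N211del dTAG13 libraries lay far above the other 6, which lay between 0.497 and 0.891. The INTS11 response was 0.46 ± 0.15 (SE) on the log2 scale, the N211del response 3.19 ± 0.15, and the difference −2.74 ± 0.21 (limma, adjusted p = 5.35e-09). RGS2 read 8.35 and 5.87 without and 8.66 and 8.04 with dTAG13 in the INTS11 line, and 8.35 and 5.87 without and 45.4 and 54.4 with it in the N211del line. The INTS11 groups overlapped, while the N211del groups were 7.01-fold apart, and the difference was −2.56 ± 0.31 (limma, adjusted p = 0.000516). PFKFB3, an enzyme that makes an allosteric activator of glycolysis, read 6.85 and 7.41 and then 7.37 and 7.68 in the INTS11 line. With N211del it went from 8.57 and 9.20 to 37.4 and 39.4, a difference of −2.02 ± 0.12 (limma, adjusted p = 1.47e-10). The microtubule-linked protein WDR47 had an INTS11 response of 0.14 ± 0.10 and an N211del response of 2.18 ± 0.10.

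Other genes of this kind rose in both lines, by unequal amounts. DIO3, the deiodinase that inactivates thyroid hormone, stood at 2.55 in both INTS11 DMSO libraries and at 11.2 and 10.2 after dTAG13, and went from 4.09 and 4.60 to 96.0 and 96.5 in the N211del line. All 4 treated libraries lay above all 4 DMSO libraries, and the N211del ones lay above the INTS11 ones. The fold was 4.08 for INTS11 and 21.7 for N211del, a difference of −2.42 ± 0.17 on the log2 scale (limma, adjusted p = 1.34e-07). SEMA3G, a secreted semaphorin, rose 2.64-fold and 14.6-fold, KCNG3, a modifying subunit of potassium channels, 3.10-fold and 14.7-fold, and MARCHF3, a membrane-bound ubiquitin ligase, 1.56-fold and 8.23-fold. KHDRBS3, an RNA-binding protein of the STAR family, rose 1.65-fold and 9.97-fold (difference −2.60 ± 0.18). MEX3B, an RNA-binding ubiquitin ligase, had an INTS11 response of 0.71 ± 0.41 that was not called, and rose by 3.23 ± 0.41 in the N211del line. It rests on few units, 3 to 41 per library.

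The N211del line shares its tagged INTS8 with the INTS8-dTAG line of the same batch, which has no added variant. There DISP3 read 0.565 in both DMSO libraries and 8.41 and 7.81 after dTAG13, and RGS2 went from 5.87 and 7.11 to 51.6 and 52.9. For DISP3 and RGS2 these levels lie close to those of the N211del line, but other genes differed after dTAG13, in either direction. KCNG3 read 6.908 and 6.004 in the INTS8-dTAG line against 3.368 and 4.195 in the N211del line, and WDR47 32.95 and 29.56 against 21.14 and 24.7. PFKFB3 was lower there, at 31.48 and 32.12 against 37.42 and 39.37, as was MEX3B, at 3.773 and 7.545 against 9.196 and 9.668. The lines were not tested against each other here.

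**Figure D2:**
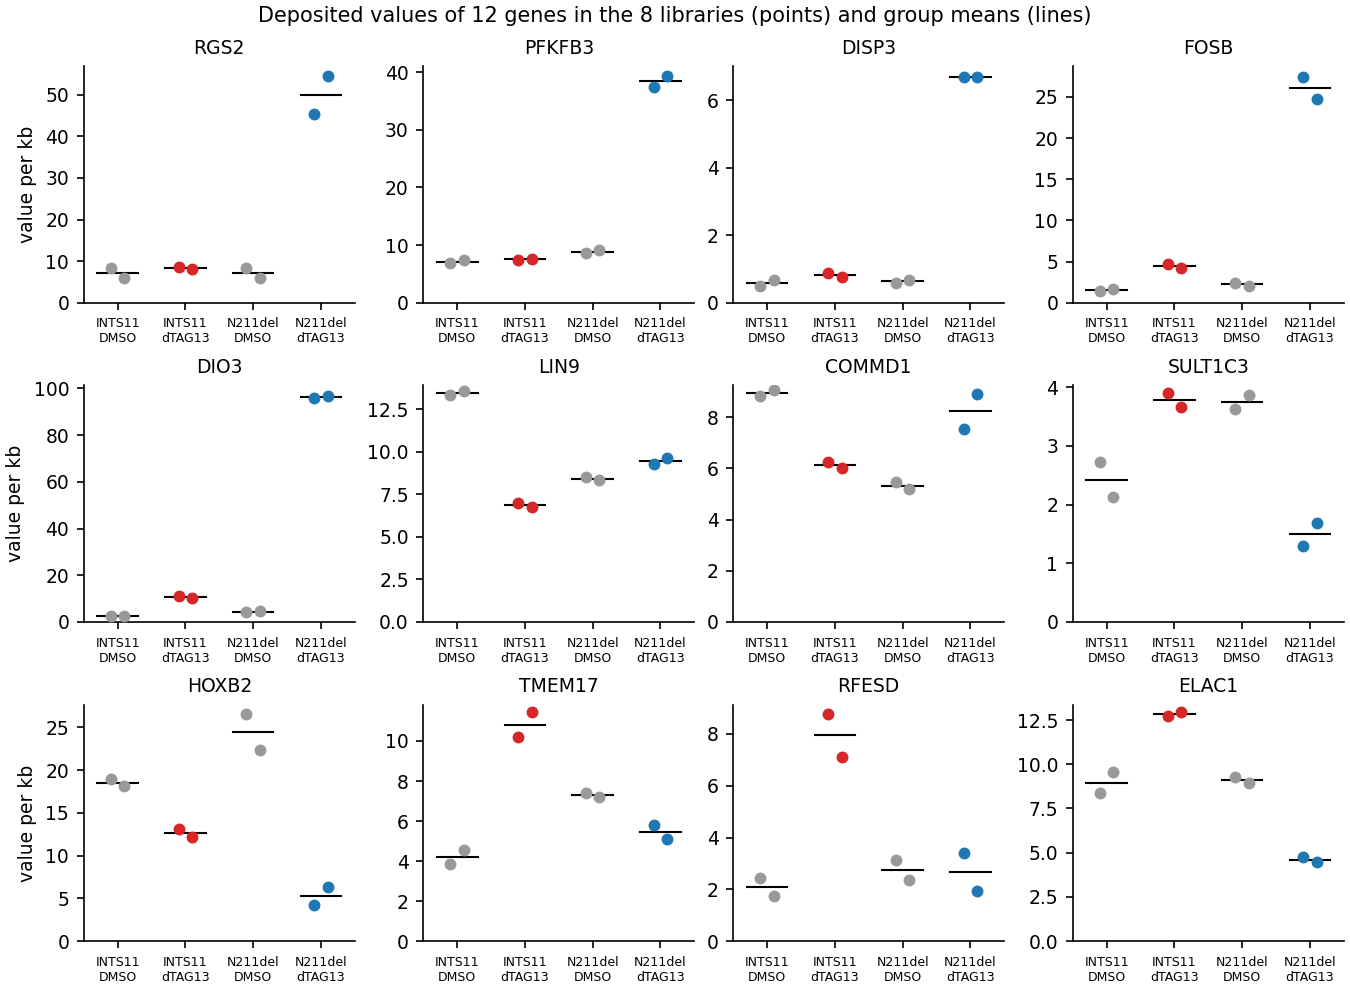
Deposited value per kb of 12 genes in each of the 8 libraries (points) with the group means (lines), for INTS11 DMSO, INTS11 dTAG13, N211del DMSO and N211del dTAG13; each y axis starts at 0. RGS2, PFKFB3, DISP3, FOSB and DIO3 are highest in both N211del dTAG13 libraries, LIN9 is lowest in both INTS11 dTAG13 libraries, and SULT1C3, HOXB2 and ELAC1 are lowest in both N211del dTAG13 libraries.

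Immediate early genes, which are switched on within minutes of a growth factor or stress signal, include several with large differences. Of 20 tested, 12 were below and 0 above, where 43.7% and 4.8% of all genes were, and 7 were below and 1 above with centring, where 15.1% and 18.8% of all genes were. Their median difference was −0.35 against −0.26 for all genes. FOSB, a partner of Jun in AP-1, went from 1.39 and 1.67 to 4.73 and 4.18 in the INTS11 line and from 2.37 and 2.09 to 27.4 and 24.8 in the N211del line. Every treated library exceeded every DMSO library, and the difference was −2.01 ± 0.18 (limma, adjusted p = 3.72e-08). FOS itself rose by 0.54 (INTS11) and 1.87 (N211del), and the orphan receptor NR4A3 by 1.43 and 2.92. The transcription factor KLF4 rose by 1.23 in the N211del line and had an INTS11 response of 0.22. EGR1 fell in both lines, by 1.04 and 0.95, and the difference of −0.08 was not called (limma, adjusted p = 0.726).

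Of 14 genes that feed back on MAP kinase signalling, 12 were below and 0 above (5 and 0 with centring), against 43.7% and 4.8% of all genes (15.1% and 18.8% with centring), and their median difference was −0.39. The phosphatase DUSP1 went from 14.5 and 18.7 to 20.7 and 18.4 in the INTS11 line, where the groups overlapped. In the N211del line it went from 25.2 and 28.4 to 72.0 and 70.4, and the difference was −1.17 ± 0.14 (limma, adjusted p = 8.0e-06). DUSP4, another such phosphatase, rose by 0.45 and 1.39. Of 10 genes of TGF-beta and BMP signalling 6 were below and 0 above (3 and 0 with centring), with a median of −0.38. SNAI1, a repressor of epithelial genes, rose 2.29-fold in the INTS11 line and 5.82-fold in the N211del line, and the inhibitory SMAD6 rose 3.37-fold and 7.34-fold.

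Hypoxia and glycolysis genes had the lowest median of the 31 lists that could be tested. Of 17 tested, 14 were below and 0 above (10 and 0 with centring), and the median difference was −0.61. Of all genes 43.7% were below and 4.8% above (15.1% and 18.8% with centring). NDRG1, which is induced by low oxygen and metals, went from 2.41 and 2.85 to 4.66 and 5.33 in the INTS11 line and from 4.59 and 4.94 to 30.2 and 30.6 in the N211del line. The INTS11 treated libraries and the N211del DMSO libraries overlapped, and both N211del treated libraries stood above all others. The difference was −1.75 ± 0.14 (limma, adjusted p = 7.73e-09). The glucose transporter SLC2A3 had an INTS11 response of 0.01 and an N211del response of 1.33, and the repressor MXI1 0.06 and 1.06. The oxygen sensor EGLN3 rose in both lines, by 0.82 and 1.63. LDHA, VEGFA and PKM had differences of −0.17, −0.13 and −0.19 that were not called, less negative than the median gene. In the N211del line 15 of 17 rose, where 48.5% of all genes did, and in the INTS11 line 5 rose, where 19.4% of all genes did.

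p53 targets had a median difference of −0.53, with 7 of 10 below and 0 above (4 and 0 with centring). For the lists of this paragraph the shares of all genes are 43.7% below and 4.8% above (15.1% and 18.8% with centring). The kinase PLK2 went from 44.9 and 49.8 to 83.2 and 85.0 in the INTS11 line and from 51.0 and 48.0 to 162.8 and 162.0 in the N211del line. It rose in both lines, with no overlap between any DMSO and any treated library, and the difference was −0.88 ± 0.09 (limma, adjusted p = 4.09e-07). CCNG1 fell in the INTS11 line by 0.53 and had an N211del response of 0.03. Of 15 ABC transporter genes 10 were below and 0 above (4 below and 1 above with centring), with a median of −0.44. The drug efflux pump ABCB1 had responses of 0.13 and 0.98. Of 17 interferon-response genes 6 were below and 1 above (3 and 3 with centring), a share below that is under that of all genes as deposited. With centring both shares are near those of all genes. IFI6 rose by 0.82 (INTS11) and 1.83 (N211del), while MX1 rose more in the INTS11 line, by 1.51 against 0.81.

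**Figure D3:**
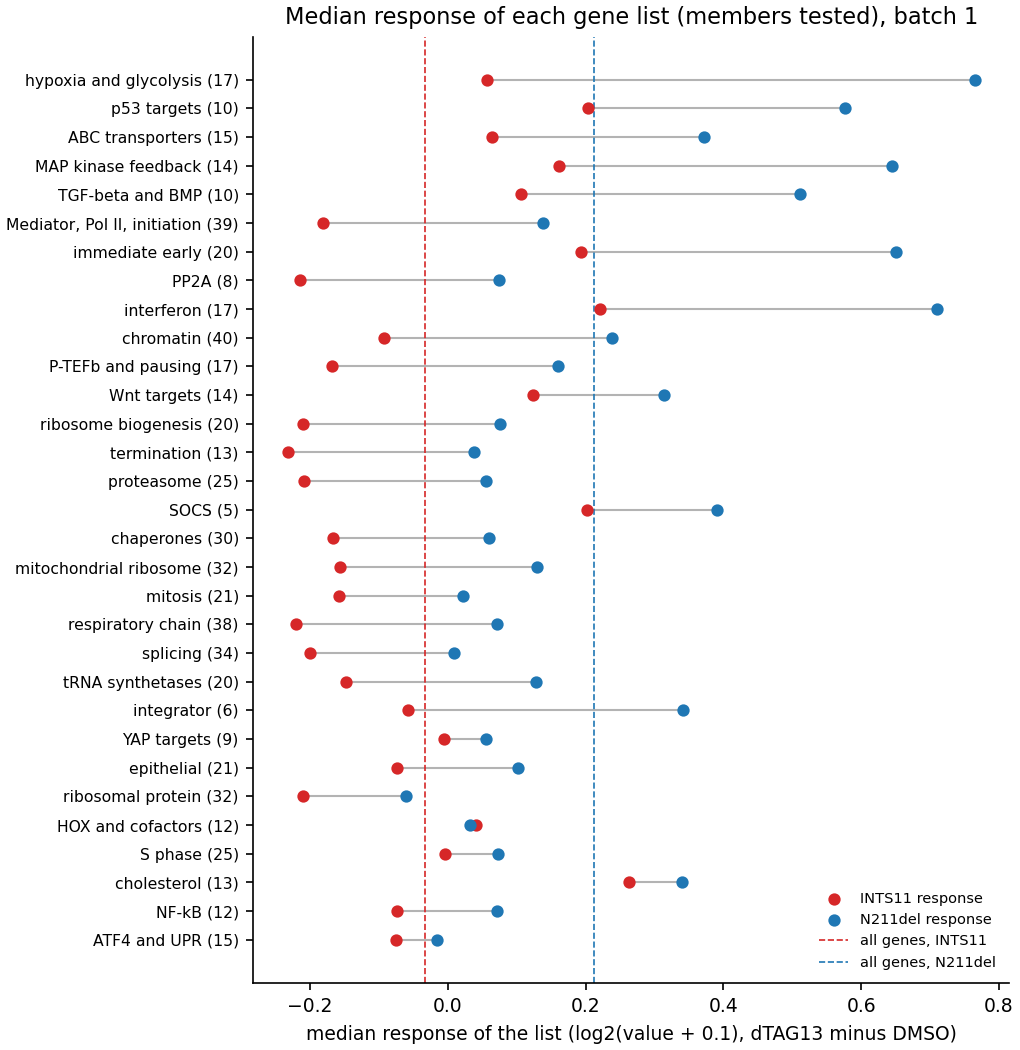
Median log2 response to 3 h of dTAG13 of the tested members of 31 gene lists (number tested in brackets) in the INTS11 line (red) and the N211del line (blue), ordered by the median difference; dashed lines mark the medians of all 6579 genes, −0.03 and 0.21. The widest gap is in the hypoxia and glycolysis list, and the ATF4 and unfolded protein list has almost none.

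Of 39 genes of Mediator, RNA polymerase II and its initiation factors, 24 were below and 1 above (10 and 3 with centring), with a median of −0.38, against 43.7% and 4.8% of all genes (15.1% and 18.8% with centring). Within the list 18 fell in the INTS11 line, where 19.8% of all genes did, and 16 rose in the N211del line, a smaller share than the 48.5% of all genes. GTF2B, the initiation factor TFIIB, read 25.02 and 25.9 and then 27.8 and 26.7 in the INTS11 line. With N211del it went from 19.0 and 19.2 to 33.9 and 37.9, which took it from below to above the INTS11 libraries. The Mediator subunit MED26, which binds elongation factors, had responses of 0.05 ± 0.08 and 0.89 ± 0.08. MED4 instead fell in the INTS11 line by 0.64 and had an N211del response of 0.12. MED18 was the only member above, with an INTS11 rise of 0.68 (N211del 0.14, not called).

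Of 17 genes of P-TEFb and pausing control 9 were below and 0 above (3 and 1 with centring), shares below that are near those of all genes (43.7%, and 15.1% with centring). CTR9, a subunit of the PAF elongation complex, had responses of 0.04 ± 0.07 and 1.01 ± 0.07. HEXIM1, the inhibitor of P-TEFb, rose in both lines, from 95.2 and 101.3 to 193.2 and 192.1 in the INTS11 line and from 110.9 and 126.1 to 317.6 and 326.4 in the N211del line. The difference of −0.47 ± 0.09 (limma, adjusted p = 0.00042) became −0.18 with centring and was then not called (adjusted p = 0.166). Of 8 PP2A genes 5 were below and 0 above (1 and 0 with centring), all 4 responses called in the INTS11 line were falls, and both called in the N211del line were rises. The regulatory subunit PPP2R3A rose in the N211del line by 1.14 ± 0.14. Of 6 other Integrator subunits and partners 3 were below and 0 above, a share below that is near the 43.7% of all genes, and their median of −0.17 lay above that of all genes. With centring 1 was below, INTS10 (−0.50 ± 0.11 as deposited), and 2 were above, INTS2 and BRAT1 (−0.02 and −0.05 as deposited, not called).

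In 8 of 9 lists of basic cell machinery more members fell in the INTS11 line than rose in the N211del line, the exception being tRNA synthetases (6 and 7 of 20). The counts were 22 and 1 of 32 ribosomal protein genes, 13 and 6 of 20 ribosome biogenesis genes, 14 and 9 of 30 chaperone genes, 9 and 7 of 32 mitochondrial ribosome genes and 8 and 1 of 13 cleavage and termination genes, where 19.8% of all genes fell and 48.5% rose. The other 3 lists are those of the proteasome, the respiratory chain and splicing. Of 25 proteasome genes 15 fell in the INTS11 line and 3 rose in the N211del line, and 12 were below and 0 above (3 and 1 with centring). PSMC6, an ATPase of the proteasome cap, went from 52.2 and 53.7 to 32.8 and 32.9 in the INTS11 line and read 34.3 and 36.1 and then 32.0 and 37.1 in the N211del line. Its INTS11 groups were far apart while its N211del groups overlapped, with responses of −0.69 ± 0.08 and −0.03 ± 0.08. With centring its N211del response was −0.29 and was called lower (limma, adjusted p = 0.000503). Of 38 respiratory chain genes 19 fell in the INTS11 line, while 7 rose and 3 fell in the N211del line, and 16 were below (5 below and 5 above with centring). The complex I gene NDUFS4 fell by 0.70 in the INTS11 line, with an N211del response of −0.07 (−0.33 with centring, called lower). Of 34 splicing genes 20 fell in the INTS11 line and 5 rose and 6 fell in the N211del line. As deposited 12 were below and 0 above, and with centring 0 were below and 5 above, so the side of 0 turned. Over all genes tested, 43.7% were below and 4.8% above, and with centring 15.1% and 18.8%. The median differences of these last 3 lists, −0.27, −0.24 and −0.21, lay close to −0.26 for all genes. Both responses also declined with the mean level of a gene. Over 5 groups ordered by level, the median INTS11 response went from 0.30 in the lowest to −0.13 in the highest. The median N211del response went from 0.47 to 0.10. Neither these lists nor the Mediator list was set against genes of like level.

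As deposited, a smaller set fell in the INTS11 line and not in the N211del line. LIN9, a subunit of the DREAM and MuvB cell cycle complexes, went from 13.3 and 13.6 to 7.01 and 6.73 in the INTS11 line, and from 8.49 and 8.32 to 9.26 and 9.61 in the N211del line. The INTS11 treated libraries were the lowest of the 8, while the N211del response of 0.17 was not called, and the difference was −1.12 ± 0.11 (limma, adjusted p = 2.4e-07). COMMD1, a regulator of copper transport and endosomal sorting, went from 8.84 and 9.05 to 6.25 and 6.02 in the INTS11 line, and from 5.46 and 5.20 to 7.55 and 8.91 in the N211del line. The responses had opposite signs, −0.54 ± 0.10 and 0.61 ± 0.10, both called, and remained called with centring. The chromatin reader PWWP2A and the tRNA ligase AARS2 also fell in the INTS11 line, by 0.62 and 0.48. Their N211del rises of 0.37 and 0.36 were not called with centring. SOX7, an endothelial and developmental transcription factor, went from 2.77 and 2.46 to 1.08 in both INTS11 treated libraries, and read 2.16 and 2.77 and then 2.16 and 3.69 in the N211del line, on 7 to 24 units per library. LRPAP1, a chaperone of LDL receptor family proteins, fell to 0.521 of its DMSO level in the INTS11 line and stood at 1.07-fold in the N211del line. With centring its N211del response was −0.17 and was called lower.

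Genes above are led by RFESD, which encodes a protein with a Rieske iron-sulfur domain, and SULT1C3, a sulfotransferase. Their promoters are shown beside those of DISP3 and RGS2 to set genes above against genes that rose in the N211del line, RFESD at chr5:95646527-95646826 and SULT1C3 at chr2:108239718-108240017 (RefSeq, GRCh38.p14, plus strand).
RFESD: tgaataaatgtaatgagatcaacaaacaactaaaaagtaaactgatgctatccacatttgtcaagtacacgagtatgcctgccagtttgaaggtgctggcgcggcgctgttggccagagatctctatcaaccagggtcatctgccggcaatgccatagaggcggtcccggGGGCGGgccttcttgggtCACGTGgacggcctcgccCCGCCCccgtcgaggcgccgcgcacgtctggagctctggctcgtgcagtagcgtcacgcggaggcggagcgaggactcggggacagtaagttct
SULT1C3: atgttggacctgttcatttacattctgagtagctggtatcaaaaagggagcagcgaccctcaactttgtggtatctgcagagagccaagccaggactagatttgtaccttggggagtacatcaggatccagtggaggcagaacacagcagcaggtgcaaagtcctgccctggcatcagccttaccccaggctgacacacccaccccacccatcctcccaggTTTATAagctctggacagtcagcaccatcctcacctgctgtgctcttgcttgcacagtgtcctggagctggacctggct

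RFESD went from 2.44 and 1.76 to 8.78 and 7.12 in the INTS11 line and read 3.12 and 2.34 and then 3.42 and 1.95 in the N211del line. The INTS11 treated libraries stood above the other 6, which overlapped, and the difference was 1.95 ± 0.38 (limma, adjusted p = 0.00416). SULT1C3 moved in opposite directions, from 2.72 and 2.13 to 3.90 and 3.66 in the INTS11 line and from 3.63 and 3.86 to 1.30 and 1.69 in the N211del line. Neither pair of groups overlapped, and the difference was 1.91 ± 0.19 (limma, adjusted p = 2.18e-07). The same was true of TMEM17, a membrane protein of the ciliary transition zone, which rose 2.53-fold in the INTS11 line and fell to 0.749 of its DMSO level in the N211del line. ELAC1, an enzyme that trims tRNA ends, rose 1.43-fold and fell to 0.511, and the LYR-motif gene LYRM9 rose 2.27-fold and fell to 0.713. TCF4, a basic helix-loop-helix factor, rose in both lines, 4.39-fold in the INTS11 line and 1.63-fold in the N211del line.

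Some genes above fell further in the N211del line than in the INTS11 line. HOXB2, a homeobox transcription factor, went from 19.0 and 18.1 to 13.1 and 12.2 in the INTS11 line and from 26.6 and 22.3 to 4.22 and 6.32 in the N211del line. It fell in both lines, by 0.55 and 2.22 on the log2 scale, and the treated N211del libraries were the lowest of the 8 (difference 1.67 ± 0.26, limma, adjusted p = 0.00129). Of the other 11 HOX and cofactor genes tested, 4 were below and 7 were not called, where 43.7% of all genes were below. With centring 4 of the 12 were above, HOXB2 included, and 2 below, where 18.8% and 15.1% of all genes were. TMEM45B and PRR15L, taken with the epithelial genes, fell by 1.76 and 1.41 in the N211del line and by 0.43 and 0.39 in the INTS11 line. ILDR1, a protein of tricellular junctions, and SELPLG, a selectin ligand, fell in the N211del line by 1.13 and 1.03, and their INTS11 responses of 0.27 and 0.24 were not called. CRYL1, a sugar dehydrogenase related to lens crystallin, fell by 0.71 (INTS11) and 1.82 (N211del).

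Several lists had a small gap between the lines, with a median above that of all genes. The counts below stand against 4.8% of all genes above and 43.7% below, and 18.8% and 15.1% with centring. ATF4 and unfolded protein response genes had a median difference of −0.01, with 1 of 15 above and 2 below as deposited and 8 above and 0 below with centring. SLC7A11, the cystine transporter, rose by 0.37 in the INTS11 line with an N211del response of −0.02, and ATF4 fell in both lines, by 0.48 and 0.57. S phase genes had a median of −0.12, with 2 of 25 above and 6 below, and 10 and 2 with centring, among them E2F2 and E2F3 above both ways (0.41 and 0.33 as deposited). Cholesterol synthesis genes had a median of −0.11, with 2 of 13 above and 3 below, and 4 and 0 with centring. They rose in both lines, 9 of 13 and 11 of 13, and PMVK, which phosphorylates mevalonate phosphate, rose by 0.88 and 0.34. Ribosomal protein genes had a median of −0.15, with 0 of 32 above and 11 below, and 7 and 0 with centring. Their calls thus lay below 0 as deposited and above 0 with centring, where the share above is near that of all genes. Epithelial genes had a median of −0.15, with 3 of 21 above and 4 below, and 8 and 3 with centring. The tight junction protein CLDN2 was above both ways, at 0.92 (responses 1.35 and 0.43), and the mucin MUC13 below both ways, at −1.12 (responses 0.28, not called, and 1.41).

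Promoters were available for 5348 of the 6579 genes tested. An AP-1 match was found in 7.76% of 245 promoters of the genes above, 3.89% of 796 of the genes below (the 316 and the 992), 4.86% of those of all genes tested and 7.76% of all 27305 promoters in the table. A TATA box match was found in 2.86%, 7.41%, 5.18% and 12%, and an SP/KLF match in 64.5%, 77.6%, 71.9% and 44.6%. The ETS match was found in 16.7%, 10.9%, 17.7% and 10.7%, the E-box match in 9.8%, 7.79%, 10.3% and 7.43% and the CRE match in 2.45%, 3.39%, 3.22% and 1.98%. Of the 4 promoters printed, DISP3 holds an AP-1 and 2 SP/KLF matches, RGS2 1 SP/KLF match, RFESD 1 E-box and 2 SP/KLF matches, and SULT1C3 a TATA box match on the reverse strand. No matches overlap in these 4. These are letter matches in a fixed window and not sites of binding.

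The lines also differed without dTAG13. In DMSO 4312 of 6579 genes differed (65.5%), 1294 higher (19.7%) and 3018 lower (45.9%) in the N211del line, and with centring 68.1% differed, 2419 higher (36.8%) and 2064 lower (31.4%). Several of the genes named above were among them, such as MUC13, at 1.43 and 1.88 in the INTS11 DMSO libraries against 5.49 and 5.12 in the N211del ones. Batch 2, whose control is 0 h, had MUC13 in the reverse order. INTS11 cells held 10.07 and 9.81 at 0 h, against 5.12 and 4.73 for N211del cells. CCN2, a matricellular YAP target, read 7.82 and 10.0 in the INTS11 DMSO libraries and 25.03 and 21.0 in the N211del DMSO libraries. It rose with dTAG13 by 0.78 (INTS11) and 2.28 (N211del), a difference of −1.50. DISP3, KHDRBS3 and RGS2 did not differ beyond the replicate spread in DMSO, with log2 differences of 0.13, −0.17 and 0.00. For RGS2 the 0 h levels of batch 2 lay apart, 16.6 and 18.4 for INTS11 cells against 8.27 and 9.84 for N211del cells. CCN2 kept its order there, 33.25 and 33.46 against 76.2 and 69.3. A difference between the lines at 0 h was not tested, so the DMSO differences are given for batch 1 only. The comparison in DMSO shares its libraries with the difference of responses and was not set against it across genes.

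Longer genes lay further below, with gene lengths read from the deposited values themselves. Over 5 groups of genes of near equal size, ordered by gene length, with medians from 6860 to 155200 bases, the median difference went from −0.18 through −0.22, −0.25 and −0.32 to −0.35, and the share of genes below from 29.3% to 55.2%. The N211del response was 0.19, 0.18, 0.18, 0.23 and 0.29 over the same groups, and the INTS11 response 0.03, −0.03, −0.05, −0.06 and −0.04. Across the 6579 genes the Spearman correlation of the difference with length was −0.19, and with the mean level it was −0.02; genes share the libraries, so this describes these 8 libraries. In the other batch, whose libraries are separate, the medians over these groups were −0.03, −0.04, −0.08, −0.18 and −0.25 and the correlation −0.21. The quartiles within each group are wide, −0.51 to −0.16 in the longest and −0.38 to 0.02 in the shortest.

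**Figure D4:**
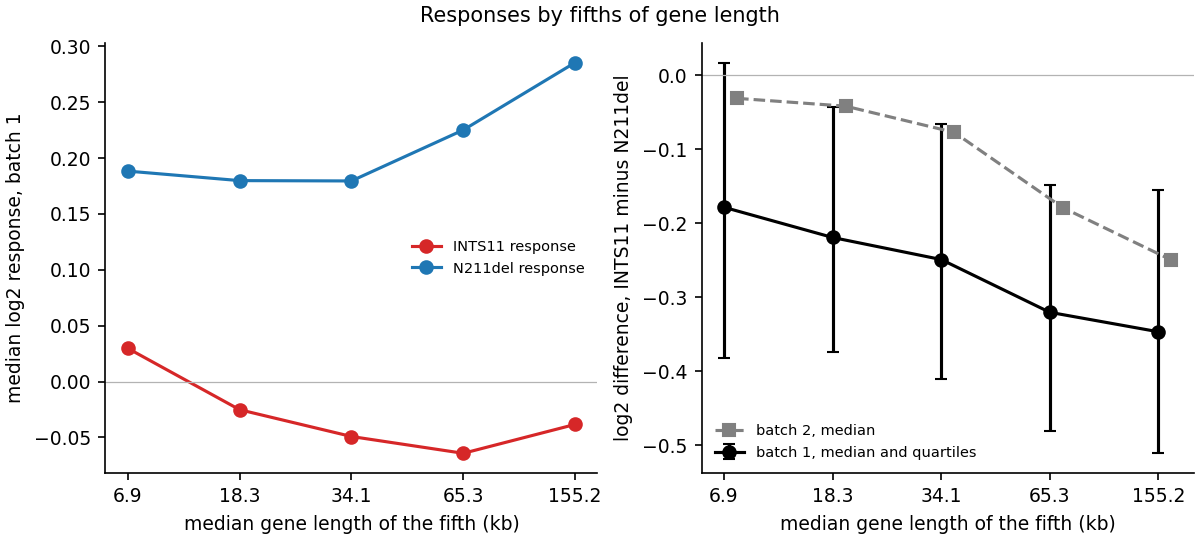
Median log2 response of each line (left) and median difference of responses with quartiles as bars (right) over 5 groups of gene length, labelled by the median length in kb; the grey dashed line is the difference in batch 2. The difference declines from −0.18 to −0.35 in batch 1 and from −0.03 to −0.25 in batch 2.

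The same lines were also given dTAG13 for 3 h in a second batch, against 0 h in place of vehicle, so batch and kind of control cannot be told apart. There the difference of responses was called at 3540 of 6950 genes (50.9%), 1053 above (15.2%) and 2487 below (35.8%). With centring 53.9% were called, 28.7% above and 25.2% below. Of the 316 genes above in batch 1, 194 (61.4%) were above in batch 2 and 7 were below. They are 19.2% of the 1011 above in batch 2 among genes tested in both. Of 2873 genes below in batch 1, 1840 (64.0%) were below in batch 2 and 102 above, and these are 74.9% of the 2458 below in batch 2. Centred on both sides, 789 of 1235 (63.9%) above and 772 of 991 (77.9%) below were called in the same direction. Across 6569 genes the differences correlated at r = 0.684 and rho = 0.639, as a description across genes that share the libraries of each batch. Of 248 genes with a called difference of at least 1 in batch 1, 238 lay on the same side of 0 in batch 2 and 200 were called there in the same direction.

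Most of the genes with large differences were called in the same direction in batch 2. DISP3 was at −2.31 ± 0.17 in batch 2, KHDRBS3 at −2.54 ± 0.12, RGS2 at −2.40 ± 0.11 and MARCHF3 at −2.37 ± 0.13, and SULT1C3 at 1.46 ± 0.18, RFESD at 1.08 ± 0.23 and TCF4 at 1.24 ± 0.15, all called. LIN9 and COMMD1 were at −1.05 ± 0.08 and −1.39 ± 0.08. DIO3 was not called in batch 2 (−1.15 ± 0.65, limma, adjusted p = 0.166), where its 0 h libraries read 5.79 and 3.07 in the INTS11 line and 1.80 and 6.10 in N211del cells. The ferredoxin reductase FDXR, at −0.98 in batch 1, and the nucleotide hydrolase NUDT18, at 1.499, were not called there either (−0.34 and 0.65).

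A test of batch 1 minus batch 2 called 864 of 6569 genes (13.2%), 150 higher (2.28%) and 714 lower (10.9%). With centring 20.1% were called, 12% higher and 8.14% lower, and with such pairs averaged 32 genes were called. SOX7 was among the 864 genes called as deposited. In batch 2 it fell from 2.82 and 2.35 to 1.53 and 1.31 in the N211del line. The INTS11 line read 0.827 and 0.617 and then 0.609 and 0.710. Its difference was −1.41 in batch 1 and 0.72 in batch 2. NDRG1 had a difference of −3.02 in batch 2, and its untreated INTS11 libraries read 15.3 and 15.1 there, against 2.41 and 2.85 in DMSO in batch 1. HERPUD1, a gene of the unfolded protein response, differed by −0.53 in batch 1 (−0.24 with centring, not called) and −1.35 in batch 2. The median in batch 2 over the genes tested in both batches was −0.12. The ATF4 list had a median of −0.31 there, with 3 of 15 above and 9 below. The cholesterol list had −0.38, with 3 of 13 above and 7 below, and the hypoxia list −0.67, with 1 of 17 above and 13 below. Of the 6950 genes tested in batch 2, 15.2% were above and 35.8% below.

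**Figure D5:**
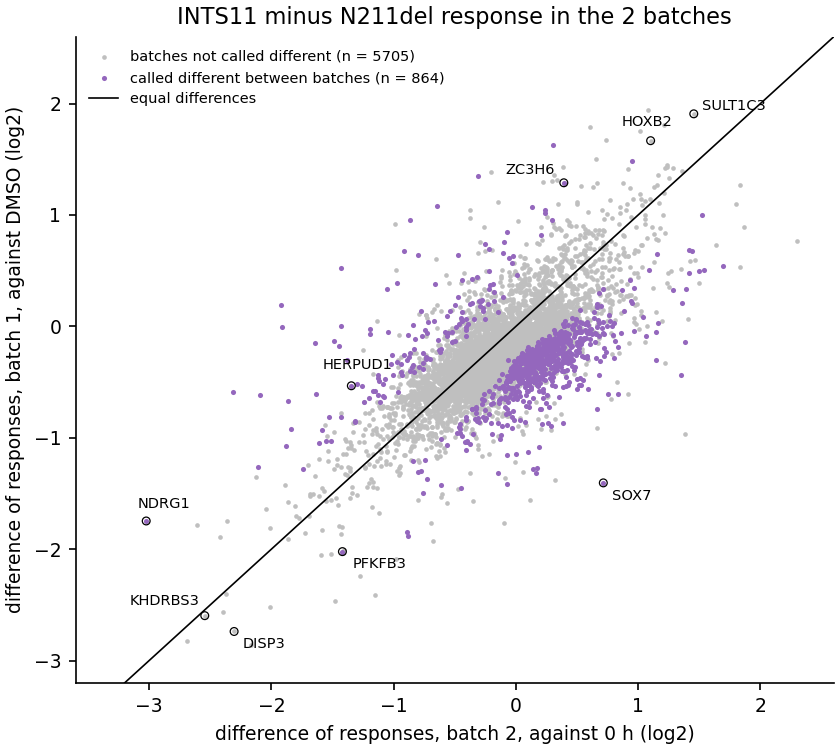
Difference of responses (INTS11 minus N211del, log2) of 6569 genes in batch 2, against 0 h (x axis), and in batch 1, against DMSO (y axis); the line marks equality and 864 purple points were called different between batches. Points run along the line at both ends, with DISP3 and KHDRBS3 low and SULT1C3 high in both, and the middle of the cloud lies below the line.

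The deposited tables list different genes for each line, 6653 for the INTS11 line and 6776 for the N211del line in batch 1, and 6611 in common. For the 42 listed for the INTS11 line alone and the 165 listed for the N211del line alone no difference can be formed in batch 1, and the level in the other line is not known. In batch 2, where both lines have values, 33 of the 42 were tested, with 11 above and 0 below, and 140 of the 165, with 11 above and 19 below. Of all genes tested in batch 2, 15.2% were above and 35.8% below, and among the 140 both shares were smaller. EGR2, an immediate early factor, was listed in batch 1 for the N211del line alone, at 0.918 and 0.689 in DMSO and 2.76 and 3.21 after dTAG13. In batch 2 it went from 1.94 and 1.83 to 4.06 and 4.07 in that line and from 5.76 and 5.22 to 18.8 and 17.9 in the INTS11 line, a difference of 0.65 ± 0.23 (limma, adjusted p = 0.0403).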

How the data were processed

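Libraries were grouped by the labels; where the treatment protocol gives 3 h for all, the times in titles and characteristics were used. The submitters' processing notes list DESeq2 1.26.0, Picard 2.23.3, SAMtools 1.9, STAR 2.7.5c and Trim Galore 0.6.6, and the builds mm10 and hg19 without saying what each was for. The deposited signal is named FPKM per the file headers, but its values could be written as whole numbers divided by gene length in kilobases. For each gene the length was taken as the smallest that made all its batch 1 values whole. Such a length was found for all 6832 genes, so the 100% of whole values in batch 1 (within 0.02) follows from it. In batch 2 lengths 1 base longer were used, with 1 factor per library chosen to give the most whole numbers. This made 99.9% to 100% of values whole. The sources used here do not give how the authors scaled batch 1 before rounding, so a count test was not used.

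Log2(value + 0.1) of the 12 libraries of batch 1 was fitted with limma 3.58.1 (R 4.3.3; 1 mean per group, trended and robust empirical Bayes), for 6579 genes with a mean of at least 0.1; fold changes on this log2 scale understate changes of low genes. Adjusted p-values are two-sided, Benjamini-Hochberg over all genes tested, with a threshold of 0.05. A list is described by its counts and median and was not tested as a set. The sources used here do not give whether strand entered the counting, so overlapping genes, and ribosomal protein genes with pseudogenes, are uncertain. The procedure was also run on simulated data, with independent normal noise for each gene and library. No library was shifted as a whole within its group there, so the simulation does not speak to such shifts.

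The comparison and the 32 gene lists were chosen with earlier results of these data known. Named genes were taken by rule from genes called in the difference, with a mean of at least 1 and the 4 response pairings of one line apart from those of the other: the 10 largest in each direction, the 4 largest of each response pattern, the 2 largest of each list, and HEXIM1; other list members are given as examples. Promoters come from RefSeq by symbol (GRCh38.p14), not from the builds named in the notes.

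Alternatives were other pseudocounts and filters, centring, a gene length correction, a replicate block, fewer libraries in the fit, pairs within counting noise averaged to 1 sample, plain empirical Bayes, each library left out, and, added after seeing the data, voom on the whole numbers. An n of 2 per group was kept, since the labels speak of biological duplicates.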

Additional observations from a re-analysis of the deposited data

Results flagged for a closer look

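The test of the difference between lines is the comparison of this report, and it called 3190 genes in batch 1. Of the genes named by the rule, 14 also had a difference of responses that departed between batches, by limma's test of batch 1 minus batch 2 over 6569 genes (adjusted p below 0.05; the call rate over all genes was 13.2%). A negative value means that the INTS11 response lay further below the N211del response in batch 1, against vehicle, than in batch 2, against 0 h. The departures were −0.60 for PFKFB3, −0.74 for CCN2, −2.12 for SOX7, −0.62 for ENGASE, a glycan-cleaving enzyme, −0.63 for LRPAP1, −0.50 for MED26, −0.40 for POLR1E, a subunit of RNA polymerase I, and −0.41 for the chemokine CXCL3. They were positive for NDRG1 (1.28), CEP20, a centrosomal gene (0.52), HERPUD1 (0.81), SLC7A11 (0.57), ZC3H6, a zinc finger gene (0.90), and ELAC1 (0.54). The difference itself had opposite signs in the batches for SOX7 (−1.41 and 0.72) and SLC7A11 (0.38 and −0.19), and the same sign for the other 12. Batch and kind of control cannot be told apart.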

How the results depend on the processing

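Of 100 named genes, 73 kept their call of the difference under every alternative, and the replicate block, other pseudocounts and filters changed none. Centring lost 18 of these calls and turned SOCS6 to 0.0091 (from −0.29; not called), averaging pairs lost 15, and the length correction lost 8. Centring also turned the median difference of all genes to 0.0306. For the difference of responses in batch 1, averaging pairs within counting noise called 1352 genes, 175 above and 1177 below. Centring gave 1237 and 992, and the length correction 1136 and 1138. Leaving out each library gave 2422 to 4014 genes, 245 to 362 above and 2062 to 3756 below. The INTS11 response was called at 1370 genes with pairs averaged and at 1686 to 2033 with a library left out, the lowest without dTAG13 replicate 2, and its lower calls numbered 713 to 1059. The batch 2 difference was called at 2250 genes with pairs averaged. The test of batch 1 minus batch 2 was the least stable: 32 genes with pairs averaged, 555 with only the libraries it names, 1320 with centring, 1452 with the length correction, and 454 to 1979 with a library left out. The count moved by over 1.5 times without INTS11 DMSO replicate 2 (509) or N211del dTAG13 replicate 1 (1979) of batch 1, and without INTS11 3 h replicate 1 (517) or 2 (557), INTS11 0 h replicate 2 (454), N211del 3 h replicate 2 (483) or N211del 0 h replicate 2 (530) of batch 2. Its lower calls ranged from 339 to 1803 and its higher calls from 92 to 248. Averaging and leaving out a library both leave fewer samples, and a group of 1 was taken to have the spread of the rest; the cause of the other changes was not tested.

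The replicate numbers did not pair the samples: residuals of same-numbered batch 1 libraries correlated at −0.10 to 0.08. With the replicate block 3113 genes were called, 308 above and 2805 below, 2523 for the INTS11 response and 3596 for the N211del response. SOX7 and RFESD rest on few units per library, and depth limits what can be said of them.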

Other observations

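Of 40 chromatin genes tested 21 were below and 0 above, and 8 below and 7 above with centring, with a median difference of −0.32 against −0.26 for all genes. Over all genes 43.7% were below and 4.8% above, and 15.1% and 18.8% with centring. The histone demethylase KDM3A read 20.6 and 21.5 per kb in DMSO and 23.6 and 22.2 after dTAG13 in INTS11 cells, and 16.9 and 16.4 and then 29.5 and 33.7 in N211del cells. Its difference was −0.79 ± 0.11 (limma, adjusted p = 9.62e-06). Of 14 Wnt pathway genes 8 were below and 0 above, and 2 below and 5 above with centring. NKD1, a feedback inhibitor of Wnt signalling, rose in both lines, by 0.52 and 1.49, as did the receptor kinase EPHB3, by 0.90 and 1.70. Of 20 tRNA synthetase genes 8 were below and 0 above, and 2 below and 4 above with centring, shares near those of all genes (43.7% below, and 18.8% above with centring). TARS3, a threonyl-tRNA synthetase, had an INTS11 response of 0.08, not called, and rose by 1.48 in N211del cells. Of 13 genes of RNA cleavage and termination 8 were below and 0 above, and 1 below and 3 above with centring. SYMPK, a scaffold of the cleavage machinery, fell in the INTS11 line from 22.5 and 23.3 to 13.97 and 13.91. In N211del cells it went from 21.7 and 21.9 to 17.2 and 19.7. That smaller fall was also called (−0.24, limma, adjusted p = 0.0129).

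Besides the genes named above, 2 genes with means under 1 per kb over the 8 libraries had differences beyond that of DISP3, and were chosen after their values were seen: CHRNA7, a subunit of the nicotinic acetylcholine receptor, at −2.86, and MDGA1, a cell adhesion protein, at −2.82 (limma, adjusted p = 4.3e-08 and 1.7e-07). ZMAT1, a zinc finger gene, lay above at 1.81 at a mean of 0.294.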
